A study of Homo sapiens with 21 samples.

Results

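The chromatin change that follows ARID1A silencing in cells already depleted of ARID1B was measured by ATAC-seq in the established neuroblastoma line SK-N-BE(2), which is of human origin. The members were the 12 of the 21 libraries of the series that formed matched pairs sharing an ARID1B hairpin. In the first pair shARID1A/B.2.3 was compared with shARID1B.3, and in the second pair shARID1A/B.4.2 was compared with shARID1B.2, with 3 libraries in each of the 4 groups. The averaged contrast was the mean of the changes in both pairs, so it asks what loss of ARID1A adds once ARID1B is low. The pairs share no library and use different hairpins against both genes.

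All cells of these 4 groups carried a lentiviral short hairpin RNA against ARID1B, and the combination groups carried in addition a hairpin against ARID1A. Cells were collected 72 h after transduction. The combination labels were read as naming the ARID1A hairpin and then the ARID1B hairpin, so that shARID1A.2 was added to shARID1B.3 and shARID1A.4 to shARID1B.2. The sources used here do not give whether cells of the single-silenced groups received a further non-silencing vector. The other 9 libraries, Control, shARID1A.2 and shARID1A.4, served as a comparison in cells with no hairpin against ARID1B and to estimate the spread.

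ARID1A and ARID1B are alternative subunits of the canonical BAF (SWI/SNF) chromatin remodelling complex, and a given complex holds one or the other. The complex uses ATP to slide and eject nucleosomes, and it is known above all for keeping enhancers accessible to transcription factors. When ARID1A is lost, complexes built on ARID1B can take over part of its work, which is why a change in cells short of both subunits is of interest. SK-N-BE(2) cells are of the adrenergic type of neuroblastoma, in which transcription factors of the sympathetic lineage such as HAND2 and GATA3 maintain cell identity through distal enhancers.

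Reads were counted over a consensus set of 367900 accessible sites (GRCh38), of which 357029 had enough reads to be tested. The 12 libraries held 18001445 to 44472230 reads in sites, and shARID1B.3 replicate 2 and shARID1A/B.2.3 replicate 2 were the deepest. Accessibility is given as CPM, the reads of a site scaled to a common library total after TMM, and a level is therefore per site and not per base. TMM sets a factor for each library and assumes that the bulk of the sites stays the same. A site was called closed or opened where its log2 change fell or rose at a false discovery rate (FDR) under 0.01 in the edgeR quasi-likelihood test, adjusted over all tested sites. The labels number 3 replicates in each group without naming separate cultures, so the p-values measure the spread between these libraries, which may be technical. In bulk libraries, fewer cells with an open site and less accessibility in each cell cannot be told apart. In a check of the cell type, 10 of 20 adrenergic transcription factor genes had a promoter site of at least 1 CPM, with a highest value of 125 CPM. Of 12 blood and endothelium genes 1 had such a promoter site, at 1.64 CPM, and of 10 epithelium genes 1 had one, at 13.9 CPM. Of 11 Schwann cell and melanocyte genes 3 had one, up to 37.6 CPM, and of 28 mesenchymal transcription factor genes 10 had one, with a median over promoters of 28.1 CPM against 19.8 CPM for the adrenergic list, so the promoters did not set the adrenergic type apart from the mesenchymal one.

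Accessibility does not report the knockdown, since a hairpin acts on the transcript. The ARID1A promoter site measured 9.82, 10.3 and 7.94 CPM with shARID1B.3 and 10.5, 8.27 and 9.94 CPM with shARID1A/B.2.3. It measured 8.43, 8.86 and 6.72 CPM with shARID1B.2 and 9.45, 8.97 and 9.55 CPM with shARID1A/B.4.2, so that the groups overlapped in the first pair and not in the second. The averaged log2 change was 0.12 (SE 0.09, edgeR FDR = 0.439). The ARID1B site nearest its transcription start site (TSS), in exon 1, changed by 0.18 on the log2 scale (SE 0.06, edgeR FDR = 0.0225). These loci therefore hold no check of the labels.

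Adding ARID1A silencing closed far more sites than it opened. On average over both pairs, 30511 sites closed (8.55% of those tested) and 4831 opened (1.35%), so that 86.3% of the called sites lost accessibility. Closed sites fell by a median of 0.70 on the log2 scale and opened sites rose by a median of 0.37, against a median of 0.04 over all tested sites. A fall of at least 1 on the log2 scale was reached at 5960 closed sites, whereas 251 opened sites rose by at least 1. Without shARID1B.2 replicate 3 the number of opened sites was 2935. Closed sites were nearest to 11280 genes and opened sites to 3782. A site is named here after its nearest gene, without knowledge of the gene that it regulates.

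At the closed sites the cells with an ARID1B hairpin alone lay near Control, and those with an ARID1A hairpin, alone or in combination, lay below it. The median level there was 3.64 CPM in Control, 3.56 CPM with shARID1B.2 and 3.18 CPM with shARID1B.3, and it was 1.90 CPM with shARID1A/B.2.3 and 2.21 CPM with shARID1A/B.4.2. With an ARID1A hairpin alone it was 2.47 CPM for shARID1A.2 and 2.68 CPM for shARID1A.4. At the opened sites the corresponding medians were 6.96, 6.98 and 7.02 CPM, 9.13 and 9.36 CPM with the combinations, and 8.70 and 8.51 CPM with shARID1A.2 and shARID1A.4 alone. These sites were chosen by the difference between combination and single silencing, so the gap between those groups is a description. For closed sites that choice favours a high level with ARID1B hairpins alone, and for opened sites a low one. The nearness of the groups with ARID1B hairpins alone to Control is thus a description too. The values in Control and with ARID1A hairpins alone did not enter that choice.

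Closed and opened sites lay in different parts of the genome. Introns held 53.2% of the closed sites and intergenic sequence 41.7%, while promoters (sites annotated to a TSS) held 1.60%, against 3.45% of all tested sites. Of the opened sites 26.4% were promoters. Read by class, 10.6% of intronic, 7.31% of intergenic and 3.96% of the 12310 promoter sites closed, and 10.3% of promoters opened, against 0.78% of intronic and 1.04% of intergenic sites. Closed sites had a median GC content of 43.7% and opened sites one of 55.5%, against 46.9% over all tested sites. With offsets for GC content 13.2% of the opened sites were promoters. The pairs differed here, since promoters were 46.4% of the sites opened in the second pair and 2.35% of those opened in the first.

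The share of closed sites depended on accessibility in different ways at distal sites and at promoters. Among distal sites, those over 3 kb from a TSS and outside the promoter class, 1.20% closed below 0.5 CPM, 7.70% between 1 and 2 CPM, 19.0% between 2 and 5 CPM and 38.8% between 5 and 10 CPM. Above 10 CPM, 35.7% of the 6117 distal sites closed and 7.60% opened. At promoters the closed share was highest between 2 and 5 CPM, at 11.2%, and of the 6866 promoters above 10 CPM 1.15% closed and 17.2% opened. A higher count gives a test more power, so these shares combine the size of the change with the depth behind it.

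**Figure D1:**
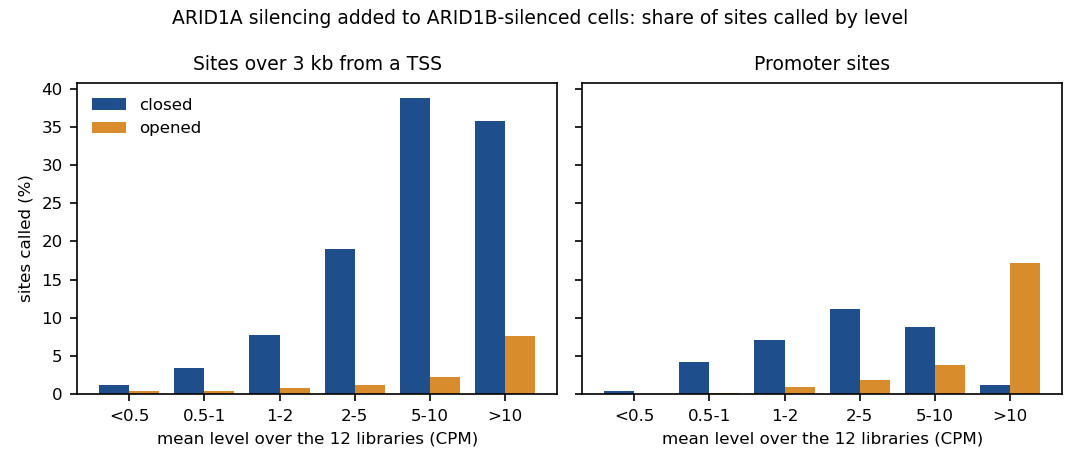
Share of tested sites called closed or opened (y axis, percent) in classes of mean accessibility over the 12 libraries (x axis, CPM), for distal sites and promoters. Distal sites reached 38.8% closed between 5 and 10 CPM, and promoters above 10 CPM had 17.2% opened and 1.15% closed.

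Among sites that fell in both pairs and in which the libraries of the compared groups did not overlap, 8547 met these conditions. The 10 with the largest averaged fall, at most 1 for each nearest gene, were intronic or intergenic except for 1 promoter. The sequences at the centre of 5 of these falls are shown because their windows hold the letters whose distal sites closed most often, and the windows of 1 rise and of 1 CTCF site are set beside them. Each window has 201 bases and was read from the plus strand of the GRCh38 reference. Capitals mark TAATTA (bound by many homeobox factors), AGATAA (bound by GATA factors) or TGANTCA (bound by AP-1) on either strand, and in the ROBO3 window the CTCF motif.
LOC101928819, chr5:67632863-67633063: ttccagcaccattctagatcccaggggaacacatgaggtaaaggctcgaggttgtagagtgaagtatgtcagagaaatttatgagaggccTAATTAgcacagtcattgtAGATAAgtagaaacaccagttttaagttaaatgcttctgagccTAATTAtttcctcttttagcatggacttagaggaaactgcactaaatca
SMPX, chrX:21741816-21742016: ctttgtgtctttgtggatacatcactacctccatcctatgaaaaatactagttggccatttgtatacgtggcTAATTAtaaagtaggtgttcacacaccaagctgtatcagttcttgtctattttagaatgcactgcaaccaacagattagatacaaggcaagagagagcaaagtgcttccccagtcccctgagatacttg
AMOTL1, chr11:94727895-94728095: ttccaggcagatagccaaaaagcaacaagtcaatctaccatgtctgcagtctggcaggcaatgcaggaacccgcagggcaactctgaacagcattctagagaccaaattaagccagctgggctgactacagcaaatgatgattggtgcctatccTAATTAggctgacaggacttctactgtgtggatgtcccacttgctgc
ENOX1, chr13:43239005-43239205: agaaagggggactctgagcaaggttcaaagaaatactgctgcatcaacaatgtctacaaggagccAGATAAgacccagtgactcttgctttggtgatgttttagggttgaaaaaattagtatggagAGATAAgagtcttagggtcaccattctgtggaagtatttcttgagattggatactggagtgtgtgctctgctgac
RP11-79E3.3, chr4:33879025-33879225: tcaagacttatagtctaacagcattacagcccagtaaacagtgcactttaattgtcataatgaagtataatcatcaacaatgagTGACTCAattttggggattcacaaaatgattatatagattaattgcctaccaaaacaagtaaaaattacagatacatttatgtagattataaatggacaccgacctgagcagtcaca
GPR22 (a rise), chr7:107485634-107485834: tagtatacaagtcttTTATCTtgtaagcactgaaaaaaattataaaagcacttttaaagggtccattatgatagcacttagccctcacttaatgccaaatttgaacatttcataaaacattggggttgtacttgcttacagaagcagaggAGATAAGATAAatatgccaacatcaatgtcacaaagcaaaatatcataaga
ROBO3 (CTCF), chr11:124876397-124876597: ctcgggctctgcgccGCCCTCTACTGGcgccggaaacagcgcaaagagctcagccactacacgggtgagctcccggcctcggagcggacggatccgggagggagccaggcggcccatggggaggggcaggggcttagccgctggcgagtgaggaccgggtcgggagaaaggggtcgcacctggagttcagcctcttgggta

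TAATTA stood in the windows of 4 of the 10 largest falls, 1 of them the C4orf6 promoter, and of 1 of the 10 largest rises. Among the 160360 distal sites of at least 1 CPM its share was 6.12%. AGATAA stood in 2 falls and 4 rises, against 12.6%, and TGANTCA in 2 falls and 1 rise, against 7.44%. The CTCF motif stood in none of these 20 windows and in 1.25% of the distal sites. A match of letters is a description of the window and does not show that a factor was bound.

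The largest fall lay in intron 4 of SOGA3, 4075 bases from the TSS of the noncoding gene LOC101928121 (chr6:127510718-127511241). It measured 14.3, 15.5 and 14.6 CPM with shARID1B.3 and 1.15, 2.11 and 1.98 CPM with shARID1A/B.2.3. The second pair measured 12.4 ± 1.56 CPM with shARID1B.2 (SD, n = 3) and 2.60, 2.85 and 2.60 CPM with shARID1A/B.4.2. All 6 combination libraries thus lay far below all 6 single-silenced libraries, and the averaged log2 change was -2.64 (SE 0.10, edgeR FDR = 1.81e-37). ARID1A hairpins in Control cells brought the same site from 10.4 ± 1.15 CPM to 1.89 ± 0.119 CPM with shARID1A.2 and 2.73 ± 0.749 CPM with shARID1A.4 (SD, n = 3 each).

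The promoter among the largest falls was that of C4orf6 (chr4:5524597-5525716). It measured 11.3, 11.9 and 9.75 CPM with shARID1B.3 against 2.40, 2.00 and 2.29 CPM with shARID1A/B.2.3. For the second pair, shARID1B.2 had 9.33, 8.58 and 7.13 CPM against 1.66, 2.21 and 2.13 CPM with shARID1A/B.4.2. No library of one kind overlapped the other, and the log2 change was -2.19 (SE 0.10, edgeR FDR = 2.31e-32). In intron 3 of SMPX, which encodes a small protein of striated muscle, the site (chrX:21741125-21742707) fell from 8.51, 9.79 and 7.60 CPM to 1.84, 1.91 and 1.80 CPM in the first pair. In the second pair it fell from 11.1, 9.82 and 9.62 CPM to 2.29, 2.07 and 2.13 CPM. Both pairs gave a log2 change of -2.23 at this site.

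Intron 1 of AMOTL1, a regulator of YAP at cell junctions, held a site (chr11:94727661-94728330) that fell from 8.86 ± 0.913 to 2.11 ± 0.447 CPM and from 11.2 ± 1.98 to 2.15 ± 0.20 CPM (SD, n = 3 each). Its log2 change was -2.22 (SE 0.11, edgeR FDR = 1.90e-31). In intron 12 of ENOX1 (chr13:43238097-43240114) the level went from 6.53, 7.29 and 6.01 CPM to 1.31, 1.42 and 1.54 CPM, and from 7.39, 6.43 and 7.78 CPM to 1.93, 1.56 and 1.58 CPM. The other falls, near CD200R1L, LOC101928819, RP11-79E3.3, RP11-13A1.1 and CCL19, had log2 changes between -2.42 and -2.21. At LOC101928819 the fall was shared by the surroundings, since 12 of its 20 tested sites closed.

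Rises were smaller and rarer, and 111 sites met the same conditions for a rise. The largest was an intergenic site 690618 bases from LINC00358 (chr13:62719482-62720850), and its change was 1.79 on the log2 scale (SE 0.17, edgeR FDR = 8.38e-15). It measured 0.642, 0.513 and 0.546 CPM with shARID1B.3 and 1.38, 1.51 and 1.80 CPM with shARID1A/B.2.3, then 0.853, 0.846 and 0.828 CPM with shARID1B.2 and 3.54, 4.65 and 3.01 CPM with shARID1A/B.4.2. Combination libraries were higher in both pairs, from a level under 1 CPM.

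A site in intron 6 of COG5, near GPR22 (chr7:107485167-107486302), rose from 1.45, 1.63 and 1.51 CPM to 4.63, 4.14 and 4.31 CPM, and from 1.04, 1.24 and 1.56 CPM to 3.00, 2.90 and 3.71 CPM. Its change was 1.40 on the log2 scale (SE 0.12, edgeR FDR = 1.18e-16). Intron 5 of ESRRG, an orphan nuclear receptor gene, held a site (chr1:216560481-216561450) at 4.83 ± 0.806 CPM with shARID1B.3 and 5.02 ± 0.556 CPM with shARID1B.2, which reached 10.2 ± 0.20 and 10.3 ± 0.173 CPM with the combinations (SD, n = 3 each). The site in intron 7 of CTNNA2, a neuronal catenin gene, near MIR8080 (chr2:79996729-79999507) rose in both pairs but by different amounts. Its log2 change was 1.74 in the first pair and 0.62 in the second (FDR of the difference 5.41e-07).

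**Figure D2:**
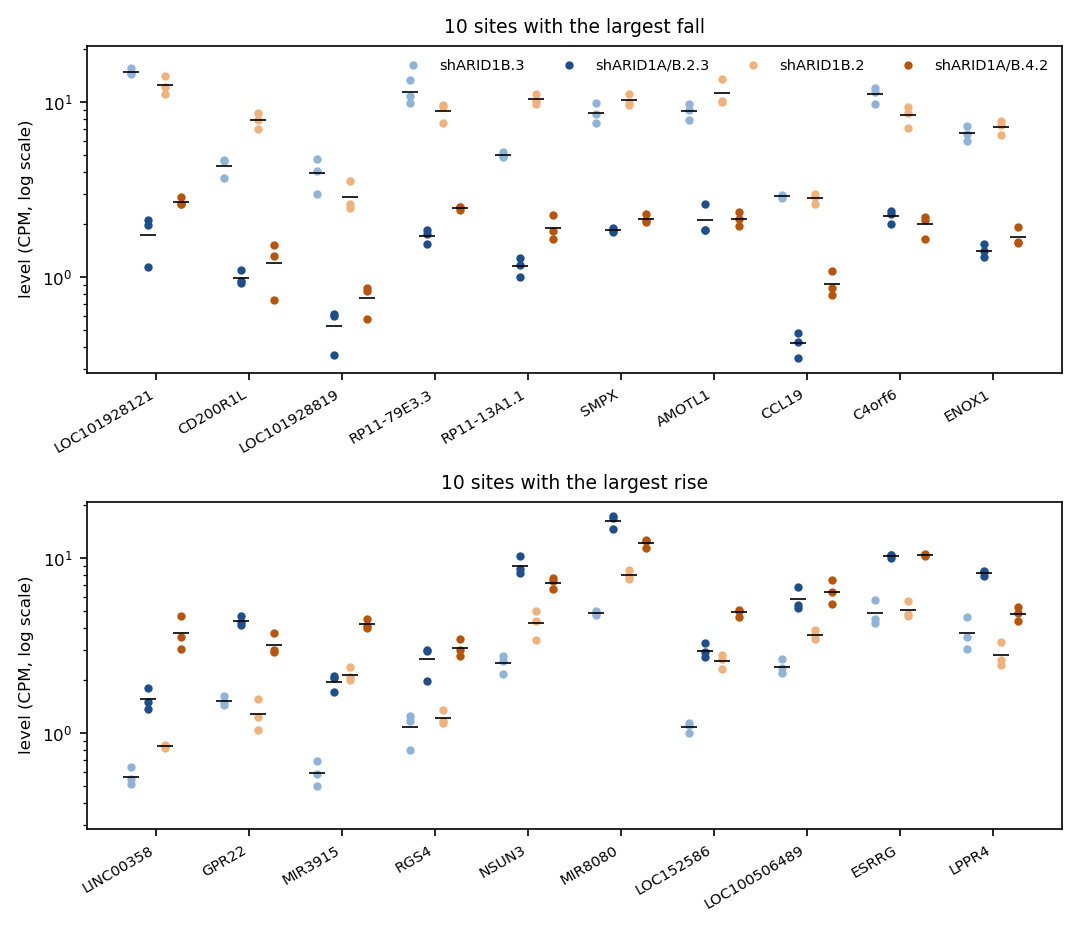
Accessibility (CPM, log axis) of each of the 12 libraries at the 10 leading falls and the 10 leading rises, with single-silenced and combination libraries of each pair marked apart. At the site near SMPX the single-silenced libraries lay between 7.60 and 11.1 CPM and the combination libraries between 1.80 and 2.29 CPM.

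Sequence letters set distal sites apart in how often they closed. Among distal sites of at least 1 CPM, 28.6% of those with TAATTA in the central window closed, against 14.6% of those without it. AGATAA gave 22.5% against 14.4%, TGANTCA 21.5% against 14.9%, the E-box CATCTG 19.2% against 14.7%, and the NFI motif TTGGCA 18.7% against 15.0%. Within classes of accessibility TAATTA remained higher, at 18.3% against 7.03% between 1 and 2 CPM, 33.0% against 18.1% between 2 and 5 CPM, and 57.3% against 36.5% from 5 CPM. Windows with TAATTA also had a lower GC content (median 41.8% against 46.4%), whose part in this difference was not tested. With offsets for GC content the shares were 26.0% and 14.4%.

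Other letters were found at about the same closed share with and without a match. These were the E-box CAGCTG (16.1% against 15.3%), SOX (ACAANG, 15.4% for both), TEAD (CATTCC, 15.1% against 15.5%), NFY (CCAAT, 16.2% against 15.1%) and RUNX (TGTGGT, 14.1% against 15.6%). ETS letters (CCGGAAG) gave 12.5% against 15.4% and SP/KLF letters (GGGCGG) 9.88% against 15.7%. Each motif was searched on both strands, and 1 window can hold several motifs. Sites are not independent replicates, so no test was made of these shares.

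Distal sites with the motif of CTCF, the factor that anchors chromatin loops, seldom closed. Of 2005 such sites 2.24% closed, against 15.6% of those without it, and their median log2 change was 0.05. The share was 0.984% between 1 and 2 CPM, 2.28% between 2 and 5 CPM and 5.95% from 5 CPM, where 38.3% of the sites without the motif closed. The CTCF-motif site with the highest level, chosen after its values were seen, lay in intron 17 of ROBO3 (chr11:124875760-124877235). It averaged 65.6 CPM with shARID1B.3 and 67.8 CPM with shARID1A/B.2.3, and 48.8 CPM with shARID1B.2 and 62.2 CPM with shARID1A/B.4.2, and its log2 change was 0.20 (SE 0.06, edgeR FDR = 0.00672). Across the alternatives in scaling, filter, model or libraries, at the same FDR limit and with no limit on the log2 change, 1.65% to 3.69% of sites with the CTCF motif closed, and 25.1% to 32.8% of sites with TAATTA.

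**Figure D3:**
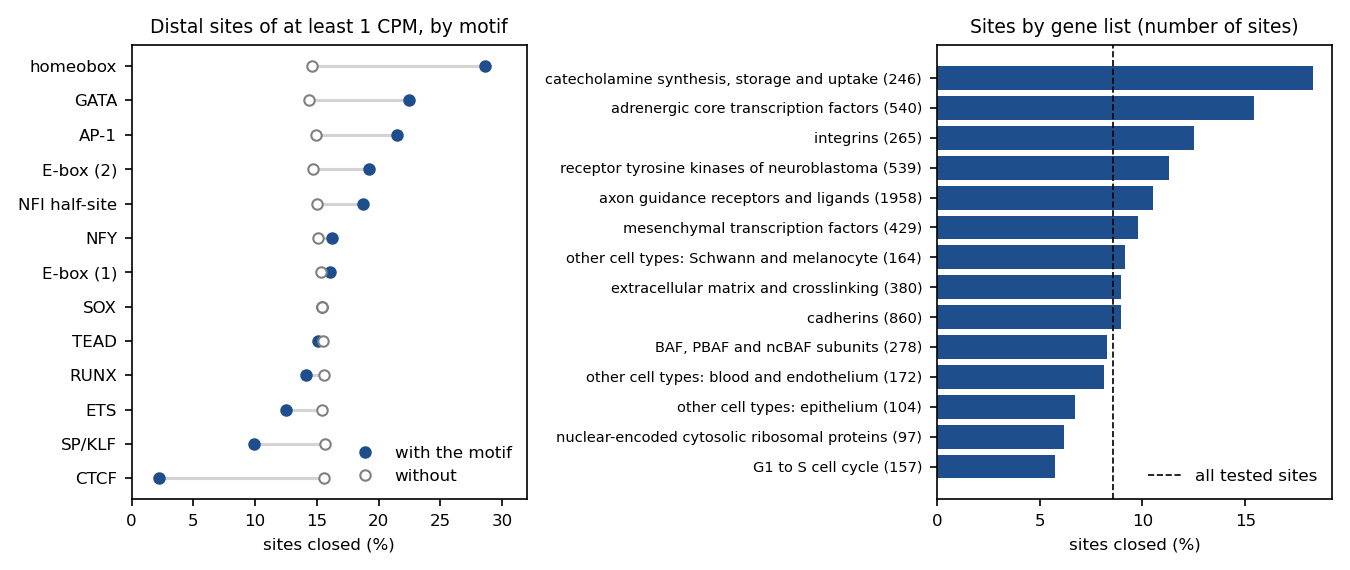
Share of sites closed (x axis, percent) for distal sites with and without each motif, and for the tested sites nearest to the genes of each list. The 2 E-boxes are CAGCTG (1) and CATCTG (2). TAATTA stands highest among the motifs at 28.6% and CTCF lowest at 2.24%, and the catecholamine list leads the gene lists at 18.3%.

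The matched pairs were then examined one by one. In the first pair 23592 sites closed (6.61% of those tested) and 3792 opened (1.06%), and in the second pair 16921 closed (4.74%) and 5095 opened (1.43%). The lower share of all called sites was 86.2% in the first pair and 76.9% in the second. It was 73.4% in the first pair with total counts in place of TMM, and 98.5% in the second when libraries were scaled on promoter sites. The median fall at closed sites was 0.88 on the log2 scale in each pair, whereas opened sites rose by a median of 0.80 in the first pair and 0.42 in the second. Both pairs closed 9017 sites, which were 38.2% of those closed in the first and 53.3% of those closed in the second, and 23 sites closed in the first pair and opened in the second. Of the sites closed in either pair, 91.3% were also lower in the other, against 49.6% of all tested sites that were lower in the second pair.

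Few opened sites were common to both pairs. Both pairs opened 112 sites, 2.95% and 2.20% of each, while 161 sites opened in the first pair and closed in the second. Of the sites opened in the first pair 56.7% were higher in the second, against 50.4% of all tested sites. The number of opened sites fell when any of several libraries was left out, which also gives the test less power. Closed sites then fell to as few as 16508 in the first pair and 12387 in the second. In the first pair the opened sites numbered 1315 without shARID1A/B.2.3 replicate 2, 1648 without shARID1B.3 replicate 1 and 2004 without shARID1B.3 replicate 2. Both libraries numbered 2 here were the deepest of those compared. The second pair had 1806 and 2933 without shARID1B.2 replicates 3 and 1, and 2495, 2998 and 2600 without shARID1A/B.4.2 replicates 1, 2 and 3. Across the 33733 sites of at least 5 CPM the log2 changes of the pairs had a Pearson correlation of 0.634, and across all tested sites 0.296. The pairs share no library, but these sites share the scaling of each library, their base composition and their level.

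**Figure D4:**
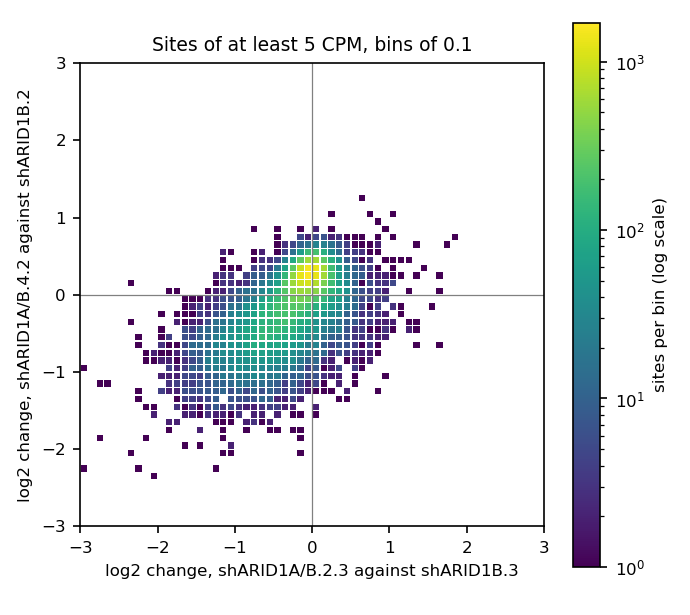
Log2 change in the first pair (x axis, shARID1A/B.2.3 against shARID1B.3) and in the second pair (y axis, shARID1A/B.4.2 against shARID1B.2) at the 33733 sites of at least 5 CPM, with colour giving the number of sites in each bin. Sites extend along the diagonal on the side of falls, and the correlation was 0.634.

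The change differed between the pairs at 3800 sites. It was lower in the first pair at 2167 sites (0.607% of those tested) and higher at 1633 (0.457%), but when libraries were scaled on promoter sites these numbers were 473 and 5748. Leaving out 1 library gave 2216 to 2425 sites in all for shARID1B.2 replicates 1 and 3, shARID1B.3 replicates 1 and 2, and each shARID1A/B.4.2 replicate. The sites with the smallest p-values were examined after their values were seen. Near MIR297 (chr4:111296160-111297265) the level fell from 20.0, 22.4 and 18.8 CPM to 4.01, 4.18 and 3.87 CPM in the first pair. The second pair measured 24.6, 20.2 and 21.1 CPM with shARID1B.2 and 25.2, 25.9 and 24.2 CPM with shARID1A/B.4.2. The respective log2 changes were -2.34 and 0.19 (FDR of the difference 2.91e-23).

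The libraries with an ARID1A hairpin alone, which entered neither pair, differed at this site in the same way. It held 16.2 ± 1.79 CPM in Control, 2.85 ± 0.845 CPM with shARID1A.2 and 22.1 ± 0.766 CPM with shARID1A.4 (SD, n = 3 each). Near DGKB, a diacylglycerol kinase gene, the log2 changes were -2.38 and -0.36, and shARID1A.2 alone measured 4.64 ± 0.108 CPM against 15.8 ± 1.53 CPM with shARID1A.4 (SD, n = 3 each). Near LOC101928775 they were -1.87 and 0.09, with 3.85, 3.78 and 3.77 CPM for shARID1A.2 alone and 18.4, 16.9 and 16.5 CPM for shARID1A.4 alone. In the opposite direction, near MIR3924, they were 1.31 and -0.68, with 19.8 ± 0.596 CPM for shARID1A.2 and 6.93 ± 0.428 CPM for shARID1A.4 (SD, n = 3 each).

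The same held over the whole set. Of the 2167 sites with a lower change in the first pair, 94.5% were lower with shARID1A.2 than with shARID1A.4, with a median log2 ratio of -0.48. Of the 1633 sites with a higher change in the first pair, 86.0% were higher with shARID1A.2, with a median log2 ratio of 0.46. Over all tested sites 49.7% were lower with shARID1A.2. These ratios were taken on mean CPM with 0.1 CPM added, which understates the change of low sites, and this comparison was chosen after the differences between the pairs were seen. The strength of each hairpin and its effects on other transcripts were not tested.

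At promoters the pairs differed in the number of opened sites. Of the 5095 sites opened in the second pair 2362 were promoters (46.4%), against 89 of the 3792 opened in the first (2.35%). The median log2 change over all promoters was -0.04 in the first pair and 0.24 in the second. The 2362 promoters had a median level of 33.8 CPM against 12.5 CPM over all promoters, and a GC content of 63.4% against 59.1%. SP/KLF letters stood in 68.0% of their windows and in 44.0% of all promoter windows. Their median change was 0.39 in the second pair and 0.02 in the first, and ARID1A silencing in Control cells gave 0.26.

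The number of opened promoters depended on the scaling. The second pair had 2783 with total counts, 830 with offsets trended on abundance, 438 with offsets for GC content and 215 when promoters themselves set the scale, and in the first pair it was 383, 506, 242 and 229 in the same order. The second pair had 789 without shARID1B.2 replicate 3, 1438 without shARID1B.2 replicate 1, and 1158, 1408 and 1221 without shARID1A/B.4.2 replicates 1, 2 and 3. In the first pair it was 45 without shARID1A/B.2.3 replicate 2, and 43 and 49 without shARID1B.3 replicates 1 and 3. Scaling on promoters moved the median of all sites in the second pair to -0.23. Site GC content moved with the change in the second pair, whose median log2 change went from -0.26 at sites under 35% GC to 0.24 at sites of at least 60%, against -0.17 and -0.07 in the first pair. The part of GC content in the opened promoters was not tested.

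The share of each library's reads that lay in promoter sites does not depend on this scaling. As a proportion it also rises where other sites lose reads, so it cannot tell a gain at promoters from a loss elsewhere. The promoter share was 22.7% ± 0.836 with shARID1B.3 (SD, n = 3) and 24.0%, 23.4% and 23.6% with shARID1A/B.2.3, and 21.4%, 21.5% and 20.9% with shARID1B.2 and 25.0%, 24.8% and 25.1% with shARID1A/B.4.2. The groups of the second pair were thus well apart, while those of the first lay close together. On average the combinations were 2.31 percentage points higher (two-sided exact permutation test within pairs, p = 0.005, the smallest the 400 permutations can give). Control libraries had 20.0% to 20.6%, and with an ARID1A hairpin alone the mean was 22.7% for shARID1A.2 and 23.5% for shARID1A.4. The share in intergenic sites differed by -1.02 points and did not pass the same test (exact permutation p = 0.135).

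**Figure D5:**
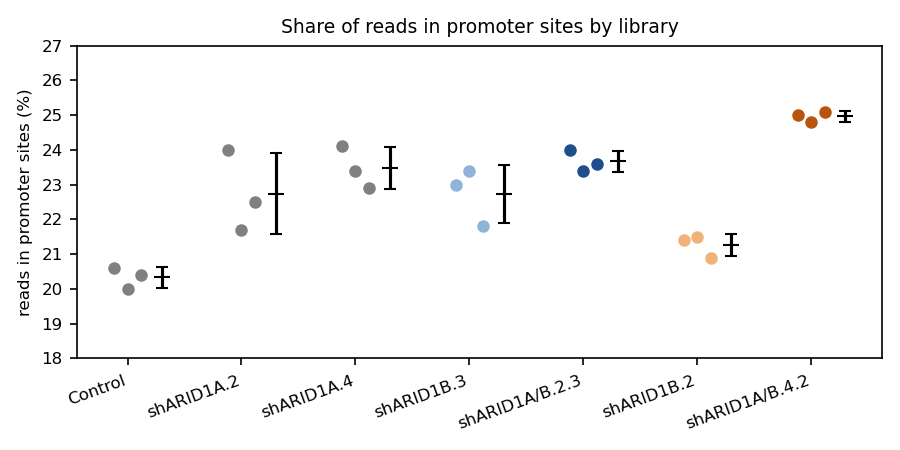
Share of the reads in sites that fell in promoter sites (y axis, percent) for each library, by group, with the group mean. The shARID1A/B.4.2 libraries sit between 24.8% and 25.1%, above the shARID1B.2 libraries at 20.9% to 21.5%.

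ARID1A silencing was next compared between cells with ARID1B silenced and Control cells, which share no library but received the same ARID1A hairpins. In Control cells the ARID1A hairpins closed 19189 sites (5.37%) and opened 5972 (1.67%). Closed in both settings were 13219 sites, 43.3% of those closed in ARID1B-silenced cells and 68.9% of those closed in Control cells, and 19 sites closed in ARID1B-silenced cells and opened in Control cells. Opened in both were 1164 sites, 24.1% and 19.5%. At the sites closed in ARID1B-silenced cells the median log2 change was -0.70 there and -0.46 in Control cells, but the sites were chosen on the former. The log2 changes had a Pearson correlation of 0.805 over the 33733 sites of at least 5 CPM and 0.393 over all. As between the pairs, these sites share the scaling of each library, their base composition and their level. Effects of a hairpin on other transcripts would be common to both settings and were not tested.

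A difference in the ARID1A effect itself was called at 1844 sites. The change was lower in ARID1B-silenced cells at 1343 sites (0.376% of those tested) and higher at 501 (0.140%), but with libraries scaled on promoter sites 581 were lower and 877 higher. Of the 1343 sites 1210 were among the closed ones, which is 3.97% of all closed sites. Their median log2 change was -0.88 in ARID1B-silenced and -0.02 in Control cells. Over these sites the median level was 4.50 CPM in Control, 5.71 CPM with shARID1B.2 and 6.02 CPM with shARID1B.3. It was 2.71 CPM with shARID1A/B.2.3 and 3.54 CPM with shARID1A/B.4.2. Choosing by this difference favours sites with a low level in Control and a high one with ARID1B hairpins alone. TAATTA stood in 16.6% of the windows of the 1343 sites and AGATAA in 24.6%. The shares were 12.1% and 18.6% of all closed sites and 5.42% and 11.8% of all tested sites. CATCTG (14.9%) and CAGCTG (9.61%) were less frequent there than in all closed sites (21.2% and 13.7%) or all tested sites (16.1% and 12.2%). The 1343 sites had a median GC content of 40.4%, against 43.7% of closed and 46.9% of all tested sites, whose part in these shares was not tested.

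Their counterparts were the 501 sites with a higher change. Their median log2 change with ARID1A hairpins was -1.01 in Control cells and -0.08 in ARID1B-silenced cells, with 0.09 in the first pair and -0.27 in the second. The median was 6.85 CPM in Control, 3.55 CPM with shARID1B.2 and 2.66 CPM with shARID1B.3, and it was 2.80 and 2.60 CPM with shARID1A/B.4.2 and shARID1A/B.2.3. CATCTG stood in 28.9% of their windows, against 16.1% of all tested sites. Both sets were chosen by this difference, so their medians are descriptions.

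Sites with the smallest p-values for this difference were named after their values were seen. An intergenic site 39403 bases from GYPC (chr2:126720500-126723940) measured 25.3 ± 2.81 CPM in Control, and 7.35 ± 0.844 and 6.15 ± 0.506 CPM with the ARID1A hairpins alone (SD, n = 3 each). With shARID1B.3 it was already at 6.22, 5.92 and 5.04 CPM, and shARID1A/B.2.3 had 4.83, 5.20 and 5.23 CPM (log2 change -0.18, edgeR FDR = 0.339). The second pair took another course, since shARID1B.2 measured 10.8 ± 1.04 CPM and shARID1A/B.4.2 5.40 ± 0.261 CPM (SD, n = 3 each), a log2 change of -1.01 (edgeR FDR = 7.8e-10; FDR of the difference between pairs 0.00169). The averaged ARID1A effect was 1.31 higher on the log2 scale than in Control cells (edgeR FDR = 3.73e-11). An intron of LAMA4, a laminin chain gene, near RP11-506B6.6 (chr6:112198728-112200060) had a log2 change of -0.46 in ARID1B-silenced and -1.52 in Control cells.

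Lower changes were led by a site 412424 bases from KCNJ3, a potassium channel gene (chr2:155110563-155111448). It fell from 7.95, 7.57 and 7.65 CPM to 2.76, 2.83 and 2.37 CPM in the first pair, whereas the second pair, with 7.58, 6.15 and 7.22 CPM against 4.88, 6.21 and 5.19 CPM, overlapped. In Control cells it measured 4.94 ± 0.566 CPM, 3.64 ± 0.308 CPM with shARID1A.2 and 13.3 ± 0.72 CPM with shARID1A.4 (SD, n = 3 each). The hairpins alone therefore went in opposite directions there. In intron 2 of ZCCHC7 (chr9:37215085-37216587) the log2 change was -2.10 in the first pair and -0.36 in the second (FDR of the difference 7.44e-08), and 284 of the 1343 sites also differed between the pairs.

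Genes of the sympathetic identity programme had many closed sites. Of 540 tested sites nearest to 20 adrenergic transcription factor genes, 83 closed (15.4%) and 5 opened, against 8.55% and 1.35% of all tested sites, and the median log2 change was -0.10 against 0.04. Closed sites were found at 15 of the 20 genes, against 11280 of the 26740 genes nearest to any tested site, whose numbers of sites differ, among them 14 of 82 at ZNF536, 12 of 46 at INSM1, 12 of 36 at DACH1, 9 of 69 at TFAP2B and 9 of 54 at EYA1. At MYCN, the oncogene amplified in this line, 4 of 29 closed, and at SOX11 0 of 40. The median level of the list's sites was 1.28 CPM against 1.02 CPM over all tested sites, and the share closed rises with level. Across the alternatives at the same FDR limit and with no limit on the log2 change, 13.0% to 22.7% of the list's sites closed, against 6.90% to 13.8% of all sites, and the highest value of each came from the minimum of 1 CPM.

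For several of these genes the site with the highest level outside the promoter class was examined. The class rests on annotation, so such a site can lie close to a TSS. At GATA3 and ISL1, which encode factors of the sympathetic lineage, these sites lay 462 and 5125 bases from the TSS. They had averaged log2 changes of 0.04 and -0.05 (edgeR FDR = 0.792 and 0.703). The TBX2 site, in an intron of BCAS3 (chr17:61383421-61386159), measured 16.5, 15.7 and 13.5 CPM with shARID1B.3 against 11.8, 9.73 and 12.2 CPM with shARID1A/B.2.3. For the second pair, shARID1B.2 had 17.4, 22.3 and 20.5 CPM against 14.6, 12.8 and 13.5 CPM with shARID1A/B.4.2. The groups did not overlap in either pair, and the site closed, with an averaged change of -0.50 on the log2 scale (SE 0.07, edgeR FDR = 4.29e-08). HAND2 had 1 tested site, with a log2 change of -0.04, and none outside the promoter class.

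Genes of catecholamine synthesis, storage and uptake had the highest share among the lists. Of 246 sites 45 closed (18.3%) and 1 opened, against 8.55% and 1.35% of all tested sites, with a median log2 change of -0.12. Closed sites included 10 of 58 at NPY, 7 of 14 at CHGA, a protein of secretory granules, 7 of 50 at SCG2, 4 of 14 at SLC18A1, a vesicular monoamine transporter, and 3 of 5 at DBH. Neither of the 2 sites of TH, the rate-limiting enzyme of the pathway, was called. The site with the highest level outside the promoter at DBH, which makes noradrenaline (chr9:133626988-133627910), measured 2.68, 2.59 and 2.35 CPM with shARID1B.3 and 2.72, 1.58 and 3.39 CPM with shARID1A/B.2.3. In the second pair it fell from 4.22, 3.44 and 3.82 CPM to 1.52, 1.15 and 1.72 CPM, and the pairs differed (log2 changes -0.07 and -1.39, FDR of the difference 0.001). The averaged change was -0.73 (SE 0.13, edgeR FDR = 1.22e-05), and the level with a hairpin against ARID1A alone was 2.42 CPM for shARID1A.2 and 0.756 CPM for shARID1A.4.

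Receptors of growth and survival signals were a further list. At 19 receptor tyrosine kinase and co-receptor genes 61 of 539 sites closed (11.3%) and 3 opened, against 8.55% and 1.35% of all tested sites. They included 12 of 97 at GFRA1 and 8 of 36 at GFRA2, co-receptors of RET, and 7 of 73 at ALK, 5 of 12 at PDGFRB, 5 of 11 at FGFR1 and 4 of 12 at RET, while PDGFRA and MET had 0 of 40 and 0 of 32. The leading site of RET outside the promoter class, annotated to intron 1 (chr10:43075489-43079210), lay 16135 bases upstream of the TSS assigned to it. Intron and distance thus rest on different transcripts, and whether the site, with a GC content of 65.1%, is a promoter was not tested. It measured 33.9 ± 1.63 CPM (SD, n = 3) against 30.6, 26.2 and 28.2 CPM in the first pair. The second pair measured 30.1, 31.3 and 28.1 CPM with shARID1B.2 against 36.4, 37.5 and 35.4 CPM with shARID1A/B.4.2. The log2 changes of -0.26 and 0.29 did not pass the threshold one by one (edgeR FDR = 0.0272 and 0.0181), but they differed from each other (FDR of the difference 0.00306) and averaged 0.01.

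Among adhesion genes, 33 of 265 integrin sites closed (12.5%) and 2 opened, against 8.55% and 1.35% of all tested sites. They included 7 of 22 at ITGA1, 5 of 12 at ITGA6, 5 of 16 at ITGB6, 4 of 12 at ITGA9, 3 of 9 at ITGA11 and 2 of 5 at ITGB3, and 12 of 25 integrin genes with tested sites had a closed one, a share near that over all nearest genes (11280 of 26740). The leading sites of ITGB3 and ITGA9, each in intron 1 near the TSS, had averaged log2 changes of 0.12 and 0.14 (edgeR FDR = 0.44 and 0.266). Cadherin genes had 77 of 860 sites closed (8.95%) and 18 opened, close to all tested sites, with 15 of 45 at CDH2, 9 of 23 at CDH22 and 9 of 62 at CDH11 against 0 of 57 at CDH8. The study drew attention to integrins and cadherins from these same libraries, so their counts are not independent evidence. Extracellular matrix genes had 34 of 380 closed (8.95%) and 3 opened, with 5 of 16 at COL6A3 and 4 of 15 at COL4A1.

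At CDH11 and CDH2 the leading site outside the promoter class, as annotated, went in opposite directions. The 2 sites were unlike in GC content, at 38.9% for CDH11 and 68.4% for CDH2. The intergenic site 640403 bases from CDH11 (chr16:64481146-64482243) measured 15.8, 16.5 and 13.3 CPM with shARID1B.3 and 7.22, 7.55 and 7.30 CPM with shARID1A/B.2.3. For the second pair, shARID1B.2 had 14.8, 13.9 and 14.1 CPM against 6.05, 6.72 and 5.70 CPM with shARID1A/B.4.2. All combination libraries were lower, and the log2 change was -1.13 (SE 0.08, edgeR FDR = 7.44e-22). The site annotated to intron 1 of CDH2, the gene of N-cadherin (chr18:28175251-28178559), lay 140325 bases upstream of the TSS assigned to it. Intron and distance thus rest on different transcripts, and whether the site is a promoter was not tested. It measured 37.2, 40.4 and 36.7 CPM against 44.1, 46.1 and 42.3 CPM, and 32.6, 31.1 and 33.1 CPM against 42.2, 41.1 and 42.0 CPM. It rose by 0.29 on the log2 scale (SE 0.06, edgeR FDR = 0.000123), with a GC content of 68.4%, and this call was lost with offsets for GC content.

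Axon guidance genes had 206 of 1958 sites closed (10.5%) and 27 opened, against 8.55% and 1.35% of all tested sites. Members varied widely, with 24 of 65 closed at SEMA6D, 21 of 71 at PLXNA2, 17 of 50 at NRP2 and 9 of 30 at NRP1. SEMA6A had 5 of 27, SEMA3D 18 of 124, SEMA3E 5 of 47 and PLXND1 1 of 15 closed. EPHA3 had 1 of 255, EPHA7 0 of 109, EPHB1 0 of 67 and EPHA5 0 of 54 closed. Mesenchymal transcription factor genes had 42 of 429 closed (9.79%), a share near that of all tested sites, and 11 opened. Closed sites included 11 of 31 at TEAD1, 7 of 29 at TWIST1 and 6 of 18 at SMAD3. SNAI1, a repressor of epithelial genes, had 3 of 6 sites opened and none closed, and SNAI2 had 3 closed and 3 opened of 40. The leading site of SNAI2, in exon 1 and 218 bases from the TSS, had an averaged log2 change of 0.00 (SE 0.06, edgeR FDR = 0.997). That of LOXL2, a collagen-crosslinking enzyme, lay 394 bases from the TSS and changed by 0.02 (SE 0.07, edgeR FDR = 0.922).

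Further lists were set beside these, where 8.55% of all tested sites closed and 1.35% opened. BAF subunit genes had 23 of 278 sites closed (8.27%) and 2 opened, including 5 of 12 at SS18, 4 of 19 at DPF3 and 2 of 3 at SMARCA4. Genes of the G1 to S transition had 9 of 157 closed (5.73%), with 4 of 14 at CDK6 and 2 of 5 at CCND1, and 2 opened. The leading site of CCND1 changed by 0.14 on the log2 scale (edgeR FDR = 0.249). Ribosomal protein genes had 6 of 97 closed (6.19%) and 5 opened (5.15%). Marker genes of other cell types had 15 of 164 closed for Schwann cells and melanocytes (9.15%), 11 of them at MITF, 14 of 172 for blood and endothelium (8.14%) and 7 of 104 for epithelium (6.73%). In the same order 4, 1 and 2 of their sites opened.

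At a few genes the majority of sites closed. Of the 4721 genes nearest to at least 20 tested sites, the median share closed was 5.13%, 197 genes exceeded 30%, and 1071 had no closed site. GRIK3, a kainate receptor gene, led with 17 of 27 sites (63.0%) and a median log2 change of -0.84. It was followed by LOC101928819 with 12 of 20, TRABD2B with 17 of 29, and KCNH2, a potassium channel gene, and LOC102503429 with 12 of 21 each. C3orf67 had 13 of 23, and LOC102724790 and RP11-170N11.1 had 12 of 22 each. At GRIK3 the median change was -0.79 in the first pair and -1.02 in the second, and at TRABD2B -0.94 and -0.91. These are ranked by their calls, so the shares are descriptions.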

How the data were processed

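ATAC-seq libraries of SK-N-BE(2) cells were taken as raw read counts per site, deposited by the authors as tables over a shared consensus set of sites annotated on GRCh38. The submitters' processing notes name DESeq2. The aligner and the peak caller were not given in the sources used here, and the build had no further version. The tables also held 36 normalized per-sample columns and 15 repeated raw Control columns, identical in all tables, and the authors' own fold changes and p-values, none of which were used.

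Counts of all 7 groups entered 1 model with no covariates in edgeR 4.0.16 (R 4.3.3, limma 3.58.1): TMM scaling, filterByExpr with a minimum count of 10, which removed 10871 sites, quasi-likelihood tests and Benjamini-Hochberg adjustment, called at FDR under 0.01. The common biological coefficient of variation was 0.082. Libraries held 16140029 to 44472230 reads in sites over the whole series. The code was tested on simulated data. Summaries used Python 3.11.15 with pandas 2.3.3, numpy 2.4.6, scipy 1.17.1 and matplotlib 3.10.9. Motifs were sought in the central 201 bases of each site in the GRCh38 reference.

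Named sites were the 10 largest falls and 10 largest rises in the average among sites called in both pairs, of at least 1 CPM and with no overlap between libraries in either pair, the most accessible site outside the promoter class of a preset list of genes (some of its results are not reported here), the 8 genes with the highest closed and opened shares among those with at least 20 tested sites, and the sites of ARID1A and ARID1B. Members, lists and rules were chosen with earlier results of these data known. Alternatives were DESeq2 1.42.0, total-count and promoter scaling, GC and abundance offsets, other filters and thresholds, thinning to the smallest total, only the compared groups, a replicate block and leaving out each library.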

Additional observations from a re-analysis of the deposited data

Results flagged for a closer look

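The effect of adding ARID1A silencing differed between the matched pairs at 3800 sites, by the edgeR test of the difference itself. Near MIR297 the log2 change was -2.34 in the first pair and 0.19 in the second. Near MAGI2-AS3 it was 0.88 and -1.27, with 13.0 CPM for shARID1A.2 alone and 5.56 CPM for shARID1A.4 alone.

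The effect of ARID1A silencing differed between ARID1B-silenced and Control cells at 1844 sites, by the edgeR test of the difference itself. At the site near MIR1261 it was -0.28 in ARID1B-silenced cells and 1.57 in Control cells, and at the site near CREB1 it was 0.30 and -0.74. The CREB1 value averaged pairs that differed, with 0.66 in the first and -0.05 in the second (FDR of the difference 0.00745), and the hairpins alone measured 7.34 CPM for shARID1A.2 and 3.96 CPM for shARID1A.4.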

How the results depend on the processing

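Sites closed in the average numbered 24633 to 39972 under the alternatives other than a limit on the log2 change and leaving out a library, and the numbers of opened sites moved more. With an FDR limit of 0.05 the opened sites were 13204 in the average, 13204 in the first pair and 10654 in the second, the pairs differed at 11055 sites, the ARID1A effect differed from Control cells at 4888, and 17.8% of the opened sites were promoters. With a change of at least 1 on the log2 scale required, 5960 closed and 251 opened in the average, 9049 and 1105 in the first pair, and 6212 and 248 in the second, with 1906 and 566 for the differences between pairs and from Control cells, and promoters were 0.554% of the closed and 0.0% of the opened sites. DESeq2 opened 2837 sites in the average and 1134 in the first pair, 37.8% of the former at promoters. Offsets for GC content left 2208 opened in the second pair and 2847 sites differing from Control cells, with promoters at 1.94% of closed and 13.2% of opened sites. Abundance-trended offsets opened 8208 in the average, 6521 and 3221 in the pairs, 16.5% at promoters. A minimum of 1 CPM opened 8827 and, in the second pair, 7673, 31.4% at promoters. Scaling on promoters opened 1474 in the average and 468 in the second pair, closed 31644 in the second pair, gave 6221 sites differing between pairs, and left promoters at 2.01% of closed and 27.6% of opened sites. Thinning opened 1632 in the first pair, with 2288 sites differing between pairs and 1161 from Control cells, and 31.6% of opened sites at promoters. Total counts opened 7610 in the average and 7203 in the first pair, 32.1% at promoters, and the compared groups alone gave 29.0%. The cause of these shifts was not tested.

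Replicate numbers did not pair the samples. Over 93911 sites, same-numbered libraries had deviations correlated at 0.294, 0.065 and -0.178 in the first pair. In the second pair these were 0.00186, -0.0772 and -0.0189. Unlike-numbered libraries of the first pair had correlations from -0.399 to 0.312, so its groups shared deviations that the numbers do not follow. Their source was not tested. With a replicate block 31644 sites closed and 5936 opened in the average, the pairs differed at 5737, and 28.7% of opened sites were promoters. The replicate block with GC offsets left 2734 opened in the second pair and 3500 sites differing from Control cells, with promoters at 2.03% of closed and 15.0% of opened sites.

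Without 1 library, closed and opened sites ranged from 26967 to 30169 and from 2935 to 4575 in the average, from 16508 to 23792 and from 1315 to 4616 in the first pair, and from 12387 to 18736 and from 1806 to 6226 in the second. The pairs differed at 2216 to 4551 sites, the effect differed from Control cells at 1304 to 1953, and promoters were 1.45% to 1.64% of closed and 21.5% to 31.6% of opened sites.

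Among named sites 1158 of 1194 values kept direction and side of the threshold. Changes near 0 turned sign: GC offsets gave -0.06 at LOXL2 and RET and -0.04 at ARID1A, with or without the replicate block, abundance offsets -0.06 at RET, promoter scaling -0.06 at GATA3 and -0.08 at LOXL2 and RET, a minimum of 1 CPM 0.04 at SNAI2, and total counts 0.02 at SNAI2. Without 1 library the change ranged from -0.02 to 0.06 at LOXL2, -0.02 to 0.02 at SNAI2 and -0.02 to 0.04 at RET.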

Other observations

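The share of closed sites varied between chromosomes, from 5.39% on chromosome 4 to 20.3% on chromosome 18, and that of opened sites from 0.814% on chromosome 15 to 4.46% on chromosome 18. Copy number was not analysed here.

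Genes with high opened shares, among those with at least 20 tested sites, included MIR1324 with 4 of 23 sites, LOC102724629 with 13 of 84, LOC100287823 with 5 of 33 and ZNF733P with 3 of 20. AREG, which encodes the growth factor amphiregulin, had 5 of 38 sites opened (13.2%) and none closed.

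Of the 9017 sites closed in both pairs, 6248 were also closed by ARID1A silencing in Control cells. A further 2768 were not called there and had a median log2 change of -0.86 with ARID1B silenced and -0.30 in Control cells. That gap follows from how these sites were chosen, and the test of the difference itself called 541 of them (19.5%).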
